A study of Homo sapiens with 12 samples.

Results

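The 38 genes described here encode the machinery that brings secretory and membrane proteins into the endoplasmic reticulum (ER), attaches sugars to them and folds them. They are a list of named genes, and all 38 were found among the 67049 gene IDs counted in each library. By role they divide into 6 proteins of the signal recognition particle, 2 subunits of its receptor, 6 genes of the SEC61 channel and its partners, 4 subunits of the TRAP complex, 5 of signal peptidase, 7 of oligosaccharyltransferase, and 8 ER chaperones and disulfide isomerases. The RNA came from HEK293T, a human embryonic kidney cell line. The cells were collected 48 h after a transient Lipofectamine 2000 transfection with pIRES2 plasmids for SF3B1, a splicing factor subunit of the U2 snRNP. There were 4 groups of 3 libraries: K700E cytoplasm, K700E nuclei, WT cytoplasm and WT nuclei, where K700E is an SF3B1 substitution found in blood cancers. All groups therefore carried extra SF3B1 on top of the endogenous gene, and no untransfected or empty-vector cells were analysed here. The title of the series concerns export of mRNA out of the nucleus in cells with mutant SF3B1, so each gene was compared between cytoplasm and nucleus, between constructs within a fraction, and for how the construct altered that fraction ratio.

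A protein bound for secretion or for a membrane starts with a hydrophobic signal that the signal recognition particle binds as it leaves the ribosome. The particle docks on its receptor at the ER, and the growing chain enters the SEC61 channel, helped by TRAP and TRAM1. Signal peptidase removes the signal, oligosaccharyltransferase moves a preassembled sugar tree onto asparagine residues, and chaperones of the ER lumen and the protein disulfide isomerases fold the chain. Most cells make these proteins at all times, and the chaperones rise in the unfolded protein response.

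Library totals ran from 9086743 to 18116929 counts, and the genes described here took 0.690% to 0.734% of counts in K700E cytoplasm, 0.404% to 0.552% in K700E nuclei, 0.645% to 0.799% in WT cytoplasm and 0.437% to 0.519% in WT nuclei. Levels are CPM, library counts per 1000000 scaled by trimmed mean of M values factors. SF3B1 itself had 6917 to 8560 CPM in K700E cytoplasm and 1024 to 1918 in K700E nuclei, against 8206 to 10075 and 1070 to 2479 with WT, and gene counts show neither its K700E base change nor which copies came from the plasmid. The fractions carried their labels: 13 of 13 mitochondrial mRNAs were called higher in the cytoplasm, and 3 of 3 nuclear-retained long non-coding RNAs lower, with either construct. Nuclei still held 907 to 1245 CPM of mitochondrial mRNAs in sum, against 4473 to 18783 CPM in cytoplasm. Neither list measures ER that stayed with the nuclei, so such carry-over was not tested. Of 7 markers of the line, VIM, NEFL, NEFM, KRT8 and KRT18 had at least 7.28 CPM in every library, PAX2 had 4.41 to 9.82 CPM and LHX1 0.0864 to 1.00 CPM. Among the markers of other cell types given here, HBB, HBA1, APOA1 and COL1A2 reached at most 0.747 CPM, and COL1A1 (14.2 to 111 CPM), ALB (up to 20.4 CPM) and COL3A1 (up to 3.51 CPM) had their highest values in nuclei. In each group 1 library followed transcript GC content more than the others (r = 0.57 for K700E cytoplasm 3, 0.41 for WT cytoplasm 3, -0.62 for K700E nucleus 2 and 0.66 for WT nucleus 2, between GC content and the deviation from the fraction's mean over protein-coding genes). The pair of nuclear libraries thus leaned in opposite directions, and results are also given without these 4. K700E cytoplasm 2, which was kept, had r = -0.42 over protein-coding genes. Over the genes described here it had r = -0.69, larger in size than the 0.49 of K700E cytoplasm 3. In the other groups the library left out had the largest r over these genes too. Whether GC content still shaped the libraries kept was not tested. Whether replicate libraries were grown and transfected apart is not stated, so p-values rest on a library-to-library spread that could be technical only.

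Most of the ER import, glycosylation and folding mRNAs had a higher scaled CPM in the cytoplasm than in the nucleus, with either construct. In K700E cells 29 of 38 were called higher in the cytoplasm and 1 lower (edgeR quasi-likelihood test, adjusted p under 0.05), where 28.1% of the 20394 genes tested were called higher and 37.9% lower. In WT cells 31 of 38 were higher and 1 lower, against 27.1% and 40% of all genes. The median log2 ratio of cytoplasm over nucleus was 1.74 with K700E (-0.29 over all genes, 0.19 over protein-coding genes) and 1.72 with WT (-0.40 over all genes, 0.13 over protein-coding genes). The libraries of the fractions did not overlap, cytoplasm above nucleus, for 30 members with K700E (30.2% of all genes) and 33 with WT (29.7%), and nucleus above cytoplasm for 2 members with K700E and 1 with WT (40.4% of all genes in each). Every member passed the filter on low counts, so these counts cover the whole list. Since libraries are scaled to one another, a ratio compares relative amounts after TMM scaling, and the amount of RNA per fraction or the number of cells that took up plasmid cannot be told apart from it.

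**Figure D1:**
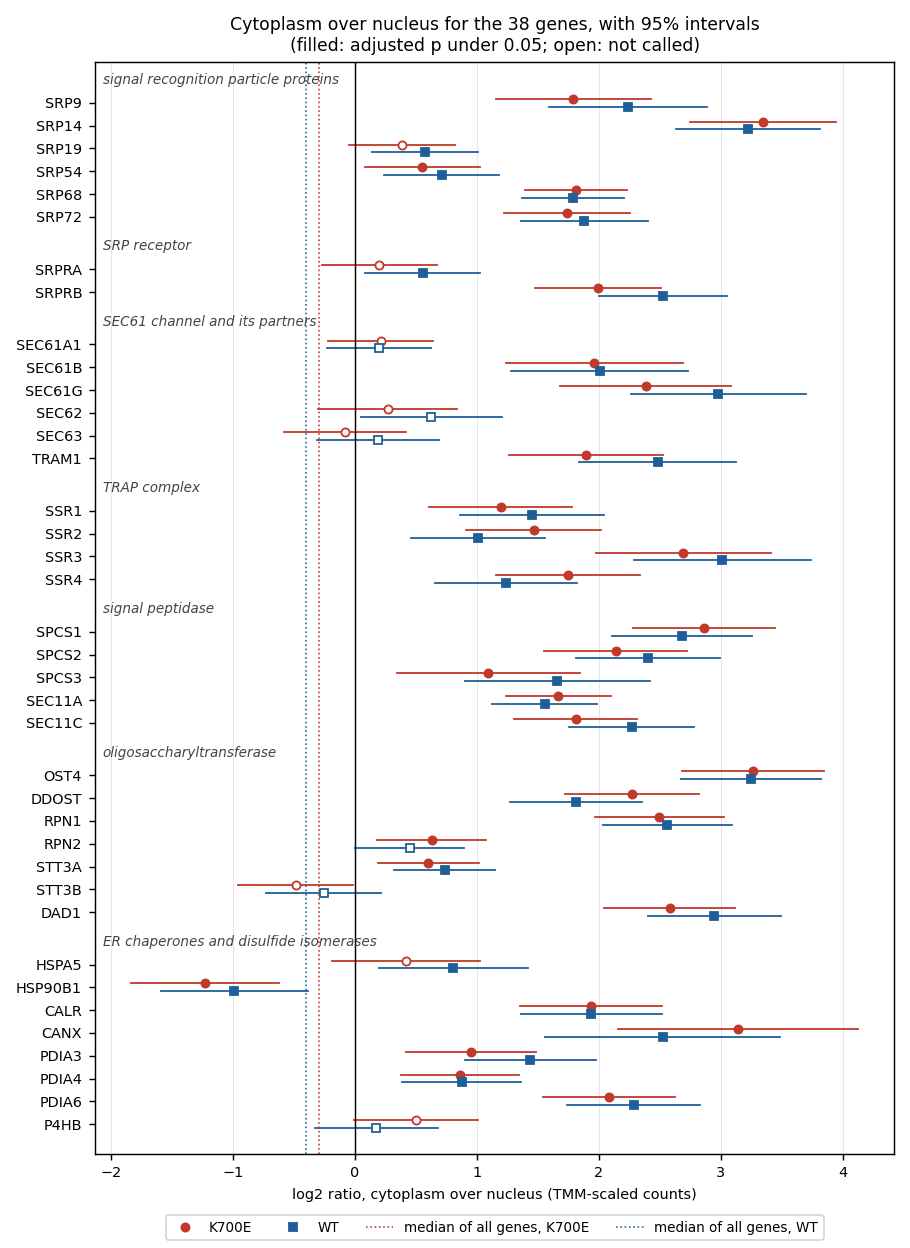
Log2 ratio of cytoplasm over nucleus for each of the 38 genes (horizontal axis) by role, with 95% intervals, for K700E (circles, upper of each pair) and WT (squares). Filled symbols were called at adjusted p under 0.05, and dotted lines mark the medians of all genes, -0.29 with K700E and -0.40 with WT. HSP90B1 is the filled symbol left of 0 in both constructs.

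The pattern was nearly the same in both constructs, whose libraries are separate. Of the 38 genes, 28 were called higher in both, 1 lower in both (HSP90B1), 3 higher with WT alone (SRP19, SRPRA and HSPA5), 1 higher with K700E alone (RPN2) and 5 in neither (SEC61A1, SEC62, SEC63, STT3B and P4HB). Across the 38 genes the log2 ratios of K700E and WT cells had r = 0.956 and rho = 0.955, given as a description over genes that share their libraries. By way of comparison, all 8 subunits of the TRiC chaperonin of the cytosol were called higher in the cytoplasm in both constructs, with medians of 1.74 (K700E) and 1.77 (WT). For the proteasome, 23 of 31 subunits were higher with K700E (median 1.17) and 25 of 31 with WT (median 1.44). The differences between these lists were not tested. The calls depend on how libraries are scaled: with library size alone, 24 members were higher and 2 lower in each construct, and of all genes called, 30.82% were higher in K700E cytoplasm against 42.56% with the main scaling, and 26.89% against 40.33% with WT. Upper quartile factors gave 32.35% with K700E.

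The 6 proteins of the signal recognition particle were called higher in the cytoplasm in WT cells, 6 of 6, and 5 of 6 in K700E cells, with medians of 1.77 (K700E) and 1.83 (WT) on the log2 scale. SRP14, which with SRP9 forms the Alu domain that slows translation during targeting, led the group. It had 212, 227 and 252 CPM in K700E cytoplasm, against 25.2, 29.2 and 13.5 CPM in K700E nuclei. With WT, SRP14 had 262, 250.4 and 275 CPM in cytoplasm, against 31.9, 32.7 and 19.7 CPM in nuclei. Every cytoplasmic library lay far above every nuclear one, and the log2 ratio was 3.35 ± 0.28 (SE; adjusted p = 1.02e-07, edgeR) with K700E and 3.22 ± 0.28 (adjusted p = 1.36e-07) with WT, folds of 10.2 and 9.33. SRP9 was counted more than any other member, at 973 to 1210 CPM in K700E cytoplasm and 1108 to 1215 CPM in WT cytoplasm, and had log2 ratios of 1.79 ± 0.30 with K700E and 2.24 ± 0.31 with WT. SRP68 and SRP72, which bind each other on the S domain, had 1.82 ± 0.20 and 1.74 ± 0.24 with K700E, and 1.79 ± 0.20 and 1.88 ± 0.25 with WT.

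SRP54, the GTPase that binds the signal sequence, and SRP19, which helps SRP54 onto the RNA, stood lowest. SRP19 had 75.8, 66.3 and 54.7 CPM in K700E cytoplasm, against 49.2, 52.4 and 49.3 CPM in K700E nuclei. In WT cells SRP19 had 85, 81.4 and 69.2 CPM in cytoplasm, against 49.9, 45.1 and 63 CPM in nuclei. The groups did not overlap in either construct, but by small margins: its log2 ratio was 0.38 ± 0.21 (adjusted p = 0.109) with K700E and 0.58 ± 0.21 (adjusted p = 0.0206) with WT. SRP54 had 0.55 ± 0.22 (adjusted p = 0.0385) with K700E and 0.71 ± 0.22 (adjusted p = 0.0105) with WT. The SRP54 call with K700E was lost under 12 of 23 alternatives (0.16 to 0.62), among them leaving out WT cytoplasm 1 (0.57), K700E nucleus 1 (0.52) or 3 (0.44), or K700E cytoplasm 1 (0.48) or 2 (0.54). Its WT call was lost with library size alone (0.20), upper quartile factors (0.34) and a minimum of 1 CPM in every library (0.39). The SRP19 call with WT was lost without WT cytoplasm 1 (0.53) or 2 (0.57). It was also lost with library size alone (0.056), upper quartile factors (0.20) and a minimum of 1 CPM in every library (0.26). The K700E ratio of SRP19 was called without K700E cytoplasm 3 (0.54) and was -0.031 with library size alone.

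The receptor of the particle has a soluble GTPase subunit, SRPRA, held at the membrane by SRPRB. SRPRB had 86.9, 92.1 and 96.2 CPM in K700E cytoplasm, against 23.2, 28.9 and 16.9 CPM in K700E nuclei, and 135, 117 and 112 CPM in WT cytoplasm, against 27.3, 16.1 and 19.6 CPM in WT nuclei. Its fractions were well apart, with a fold of 3.99 (SE 0.24 in log2; adjusted p = 3.48e-06) with K700E and 5.76 (SE 0.25 in log2; adjusted p = 3.82e-07) with WT. SRPRA had 98.3, 84.5 and 95.6 CPM in K700E cytoplasm, against 89.8, 78.8 and 73.6 CPM in K700E nuclei, and 126, 116 and 112 CPM in WT cytoplasm, against 106, 79.5 and 55.3 CPM in WT nuclei. The K700E fractions of SRPRA overlapped (0.20 ± 0.22, adjusted p = 0.438) and the WT fractions did not (0.56 ± 0.22, adjusted p = 0.0364). That WT call was lost in 9 of 23 alternatives, including without WT nucleus 3 (0.40) or WT cytoplasm 1 (0.52), 2 (0.59) or 3 (0.61), and with library size alone (0.046), and the K700E ratio was -0.22 with library size alone. SRPRB shares exon bases with RAB6B and SRPRA with FOXRED1 and FAM118B on the opposite strand, and whether counting used strand is not given in the sources used here.

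The SEC61 channel and its partners split in the middle: 3 of 6 were called higher in the cytoplasm in each construct, and 3 in neither. The small channel subunits SEC61B and SEC61G and the translocating chain associated protein TRAM1 rose, whereas the pore subunit SEC61A1 and the SEC62 and SEC63 proteins, which assist post-translational import, were not called. SEC61G had 114, 123 and 69.9 CPM in K700E cytoplasm, against 17.7, 30.7 and 10.3 CPM in K700E nuclei, and 118, 154 and 103 CPM in WT cytoplasm, against 17.2, 14.7 and 15.6 CPM in WT nuclei. The fractions were apart in both constructs, with log2 ratios of 2.39 ± 0.33 (adjusted p = 1.27e-05) with K700E and 2.98 ± 0.34 (adjusted p = 1.69e-06) with WT. SEC61B had 1.96 ± 0.35 with K700E and 2.01 ± 0.34 with WT, and TRAM1 had 1.90 ± 0.30 and 2.48 ± 0.31. SEC63, the partner that recruits HSPA5 to the channel, had 299, 252 and 200.4 CPM in K700E cytoplasm, against 231, 357 and 208 CPM in K700E nuclei, and 265, 248 and 183 CPM in WT cytoplasm, against 220.0, 200.1 and 189 CPM in WT nuclei.

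The fractions of SEC63 overlapped in both constructs, with log2 ratios of -0.08 ± 0.24 (K700E) and 0.19 ± 0.24 (WT), and neither sign was stable. The K700E ratio of SEC63 was above 0 without K700E nucleus 2 (0.21), K700E cytoplasm 3 (0.10) or the 4 GC-following libraries (0.42), and the WT ratio was -0.33 with library size alone and 0.46, called higher, without the GC-following libraries. SEC61A1 had 0.21 ± 0.20 with K700E and 0.20 ± 0.20 with WT, was negative with library size alone (-0.20 with K700E, -0.32 with WT), and was called higher with WT without the GC-following libraries (0.49). SEC62 had 0.27 ± 0.27 (adjusted p = 0.395) with K700E and 0.63 ± 0.27 (adjusted p = 0.0509) with WT. The WT ratio of SEC62 passed the threshold without the GC-following libraries (0.86), as did that of K700E (0.92), and the K700E ratio was also called without K700E nucleus 2 (0.69). The WT ratio was called as well without WT nucleus 3 (0.78), WT cytoplasm 3 (0.81), K700E nucleus 1 (0.68), 2 (0.65) or 3 (0.68), or K700E cytoplasm 3 (0.67), and with the construct-by-number replicate block (0.61).

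All 4 TRAP subunits and all 5 of signal peptidase were called higher in the cytoplasm in both constructs. TRAP sits beside the channel and helps certain signals to open it. Its SSR3 subunit had 429.7, 384 and 330.3 CPM in K700E cytoplasm, against 63.6, 75.8 and 37.9 CPM in K700E nuclei, and 389, 408 and 306 CPM in WT cytoplasm, against 74.1, 26.3 and 36.1 CPM in WT nuclei. The log2 ratio of SSR3 was 2.69 ± 0.34 (adjusted p = 4.69e-06) with K700E and 3.01 ± 0.34 (adjusted p = 1.71e-06) with WT, with no overlap of the fractions. SSR2 had 134, 98.6 and 142 CPM in K700E cytoplasm, against 47.1, 52.4 and 36 CPM in K700E nuclei, and 130.2, 109 and 119.9 CPM in WT cytoplasm, against 51.7, 85.2 and 41.2 CPM in WT nuclei. For SSR2 the fractions were also apart, with 1.47 ± 0.26 (adjusted p = 0.000149) in K700E cells and 1.01 ± 0.26 (adjusted p = 0.00267) in WT cells, and the WT call was lost with library size alone (0.48). SSR1 had 1.20 ± 0.28 (K700E) and 1.45 ± 0.28 (WT), and SSR4 1.75 ± 0.28 (K700E) and 1.24 ± 0.28 (WT).

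Signal peptidase cuts with SEC11A or SEC11C, and SPCS1, SPCS2 and SPCS3 make up the rest of the complex. SPCS1 had 119, 118 and 95.5 CPM in K700E cytoplasm, against 17.6, 17.5 and 10.6 CPM in K700E nuclei, and 127, 131 and 95.6 CPM in WT cytoplasm, against 24.9, 13.9 and 16.2 CPM in WT nuclei. It stood highest of the 5, at 2.86 ± 0.27 (adjusted p = 3.05e-07) with K700E and 2.68 ± 0.27 (adjusted p = 5.27e-07) with WT, though 50.7% of its annotated exon bases overlap NEK4 on the other strand. SEC11A had 258, 213 and 212 CPM in K700E cytoplasm, against 68.6, 86.2 and 59.8 CPM in K700E nuclei, and 202, 233 and 183 CPM in WT cytoplasm, against 70.5, 66.7 and 72.8 CPM in WT nuclei. The nuclear values of SEC11A hardly varied in WT cells, and its log2 ratio was 1.67 ± 0.20 (adjusted p = 3.35e-06) with K700E and 1.56 ± 0.20 (adjusted p = 6.41e-06) with WT. SEC11C had 1.81 ± 0.24 (K700E) and 2.27 ± 0.24 (WT), SPCS2 had 2.14 ± 0.28 (K700E) and 2.40 ± 0.28 (WT), and SPCS3 had 1.10 ± 0.35 (K700E) and 1.66 ± 0.36 (WT). The K700E call of SPCS3 was lost without K700E nucleus 3 (0.92, adjusted p = 0.0526) and with library size alone (0.71). It was also lost with upper quartile factors (0.74) and a minimum of 1 CPM in every library (0.78). Reads may be shared with processed copies, since SPCS2P4 had 17.1% as many counts as SPCS2 over all libraries.

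**Figure D2:**
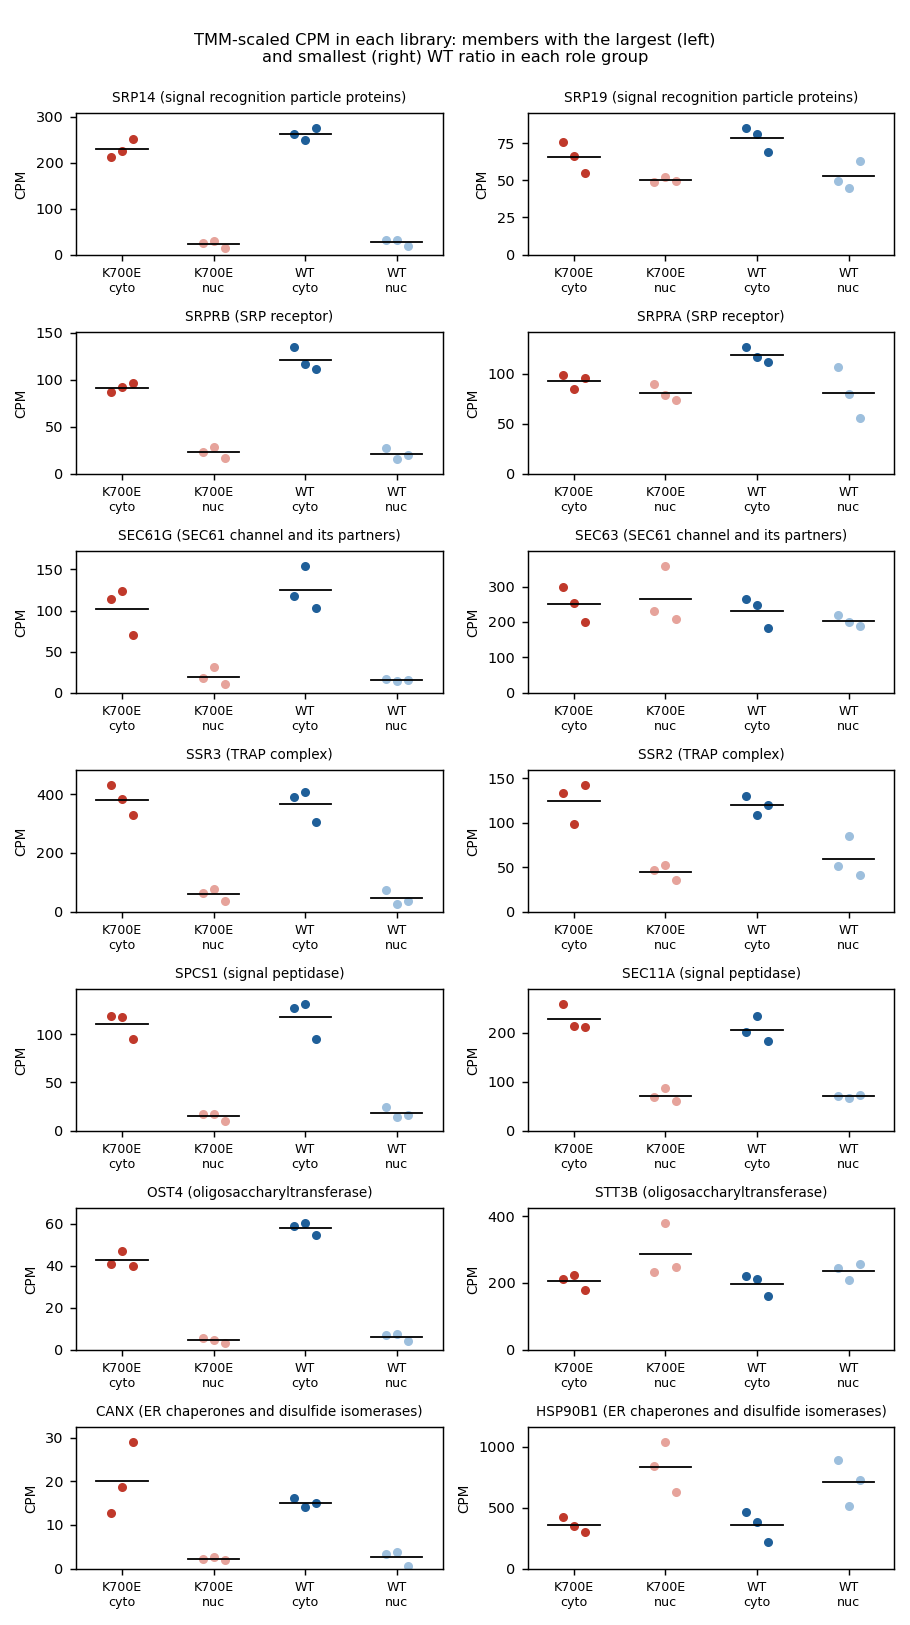
CPM in each library (points; replicates 1 to 3 from left to right) and group mean (line) for the member with the largest WT ratio of each role group (left) and the one with the smallest (right), with cytoplasm left of nucleus within each construct. Left panels show cytoplasmic libraries far above nuclear ones, as for OST4 (39.8 to 47.1 against 3.23 to 5.43 CPM with K700E), and HSP90B1, lower right, shows the opposite.

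Oligosaccharyltransferase ranged widely, from the largest ratio of all members in WT cells (OST4) to ratios below 0 (STT3B). OST4, a very small membrane subunit that stabilises the complex around its catalytic subunit, had 41.1, 47.1 and 39.8 CPM in K700E cytoplasm, against 5.43, 4.58 and 3.23 CPM in K700E nuclei. In WT cells OST4 had 59.1, 60.3 and 54.6 CPM in cytoplasm, against 6.81, 7.37 and 4.09 CPM in nuclei. The log2 ratio of OST4 was 3.27 ± 0.28 (adjusted p = 1.02e-07) with K700E and 3.25 ± 0.27 (adjusted p = 1.01e-07) with WT, folds of 9.63 and 9.49, and 21.0% of its exon bases overlap AGBL5 on the other strand. DAD1, another small subunit, had 2.58 ± 0.25 (K700E) and 2.95 ± 0.26 (WT). The ribophorin RPN1 had 2.49 ± 0.25 (K700E) and 2.56 ± 0.25 (WT), and DDOST had 2.27 ± 0.26 (K700E) and 1.82 ± 0.26 (WT). RPN2, the other ribophorin, was called higher with K700E (0.63 ± 0.21, adjusted p = 0.0149) and not with WT (0.45 ± 0.21, adjusted p = 0.0694), and the difference between constructs was not called (0.18 ± 0.30).

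The RPN2 call with K700E was lost without K700E nucleus 3 (0.51) and with library size alone (0.22). It was also lost with upper quartile factors (0.27) and a minimum of 1 CPM in every library (0.31). The WT ratio of RPN2 was called without WT nucleus 2 (0.56), WT cytoplasm 3 (0.59), K700E nucleus 1 or 3 (0.50 each), or the GC-following libraries (0.76). With library size alone it was -0.072. The catalytic subunits did not move together. STT3A, which glycosylates chains as they pass through the channel, was called higher at 0.60 ± 0.19 (K700E, adjusted p = 0.0121) and 0.74 ± 0.20 (WT, adjusted p = 0.00341). The STT3A calls were lost with library size alone (0.20 and 0.22), upper quartile factors (0.24 and 0.37) and a minimum of 1 CPM in every library (0.28 and 0.42). STT3B, which also glycosylates sites that were skipped, had 212, 222 and 179 CPM in K700E cytoplasm, against 234, 378 and 247 CPM in K700E nuclei, and 222, 211 and 160.4 CPM in WT cytoplasm, against 244, 208 and 257 CPM in WT nuclei. With K700E every nuclear library of STT3B lay above every cytoplasmic one, while the WT fractions overlapped. Its log2 ratio was -0.48 ± 0.22 (adjusted p = 0.065) with K700E and -0.26 ± 0.22 (adjusted p = 0.318) with WT, and it was called lower under 6 of 23 alternatives with K700E (-0.54 to -0.88) and 3 of 23 with WT (-0.57 to -0.77).

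The 8 chaperones and isomerases held both the member furthest toward the nucleus, HSP90B1, and, with K700E, 1 of those furthest toward the cytoplasm, CANX. In K700E cells 5 were called higher and 1 lower, and in WT cells 6 were higher and 1 lower. HSP90B1, the HSP90 of the ER lumen, had 423, 349 and 299 CPM in K700E cytoplasm, against 844, 1034 and 626 CPM in K700E nuclei, and 466, 384 and 221 CPM in WT cytoplasm, against 890.3, 510.4 and 724 CPM in WT nuclei. Every nuclear library lay above every cytoplasmic library of its construct. The log2 ratio of HSP90B1 was -1.23 ± 0.29 (adjusted p = 0.00142) with K700E and -0.99 ± 0.29 (adjusted p = 0.00606) with WT, and the lower call held under 23 of 23 alternatives in each construct, at -0.83 to -1.63 (K700E) and -0.72 to -1.50 (WT).

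HSPA5, the HSP70 of the ER known as BiP, had 471, 309.8 and 376 CPM in K700E cytoplasm, against 248, 411 and 205 CPM in K700E nuclei, and 473, 377 and 222 CPM in WT cytoplasm, against 219, 189.8 and 204 CPM in WT nuclei. Its K700E fractions overlapped through nucleus 2 (0.42 ± 0.29, adjusted p = 0.206), and without that library the ratio was 0.79 (adjusted p = 0.0275). With WT the lowest cytoplasmic library lay just above the highest nuclear one, and the ratio was 0.81 ± 0.29 (adjusted p = 0.0209). That call was lost without WT cytoplasm 1 (0.57) or 2 (0.78) and with library size alone (0.29). It was also lost with upper quartile factors (0.44) and a minimum of 1 CPM in every library (0.49). CALR, a lectin chaperone of the lumen, had 1.94 ± 0.27 in both constructs. CANX, its membrane-bound relative, had 12.8, 18.7 and 28.9 CPM in K700E cytoplasm, against 2.16, 2.68 and 2.01 CPM in K700E nuclei, and 16.1, 14 and 15 CPM in WT cytoplasm, against 3.37, 3.77 and 0.637 CPM in WT nuclei. The CANX fractions were apart, at 3.14 ± 0.47 (adjusted p = 2.45e-05) with K700E and 2.52 ± 0.46 (adjusted p = 0.000157) with WT.

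CANX held only 1551 counts over all 12 libraries, fewer than any other member, and 6542 gene IDs in the files had no symbol in the tables used, so whether another record carried further CANX counts was not tested. Of the protein disulfide isomerases, PDIA6 had 2.08 ± 0.26 (K700E) and 2.29 ± 0.26 (WT), PDIA3, which pairs with CALR and CANX, 0.95 ± 0.25 (K700E) and 1.44 ± 0.25 (WT), and PDIA4 0.86 ± 0.23 (K700E) and 0.88 ± 0.23 (WT). The PDIA4 calls were lost with library size alone (0.44 and 0.35) and with upper quartile factors (0.50 and 0.51). P4HB, the isomerase that is also a subunit of prolyl 4-hydroxylase, was not called, at 0.50 ± 0.24 (adjusted p = 0.0759) with K700E and 0.18 ± 0.24 (adjusted p = 0.525) with WT. The K700E ratio of P4HB was called without WT nucleus 2 or 3 (0.54 each), and the WT ratio was -0.35 with library size alone.

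The promoters of chaperone genes carry the ER stress response element, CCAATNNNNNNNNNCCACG, to which NF-Y and the unfolded protein response factor ATF6 are known to bind. The 300-base windows of RefSeq (GRCh38.p14), from 250 bases before to 50 after each start, were searched on both strands, and 32 of the 38 genes had a window. An exact match was present in 5 of these, all chaperones or isomerases, and in 25 of all 27305 genes with a window (0.0916%). Because the element is already known from chaperone promoters, these matches are no independent result. HSP90B1 has 2 matches on opposite strands, HSPA5, CALR, CANX and PDIA6 have 1 each, and the windows of PDIA4 and P4HB have none. These sites are shown because they link genes with very different ratios. Capitals mark the fixed bases of the element, each site reads 5′ to 3′ on the strand named, and 5 bases flank it on either side.
HSPA5, chr9:125241386-125241414, minus: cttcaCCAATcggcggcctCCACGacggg
HSP90B1, chr12:103930211-103930239, plus: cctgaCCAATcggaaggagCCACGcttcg
HSP90B1, chr12:103930316-103930344, minus: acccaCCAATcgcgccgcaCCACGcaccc
CALR, chr19:12938379-12938407, minus: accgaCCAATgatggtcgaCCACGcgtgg
CANX, chr5:179698773-179698801, plus: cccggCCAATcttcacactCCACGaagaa
PDIA6, chr2:10812848-10812876, minus: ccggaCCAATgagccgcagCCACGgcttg
The 5 genes with the element had log2 cytoplasm-to-nucleus ratios of -1.23 to 3.14 with K700E and -0.99 to 2.52 with WT, and K700E-over-WT ratios of -0.14 to 0.42 in the cytoplasm and -0.19 to 0.50 in the nucleus, none of which was called. A match is a description of letters in these windows and says nothing of binding in these cells.

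To compare levels between genes, counts were divided by annotated exon length and scaled to a sum of 1000000 per library (TPM). That length covers all annotated exons of a gene and can far exceed the length of a single mRNA. It was 4511 against 1202 bases for SEC11C, 10517 against 2841 for SRP19, and 1728 against 1480 for SRP9. The order of genes given here holds for this divisor, and an order by mRNA length was not drawn up. In the cytoplasm SRP9 was far above the rest, at 2191 ± 288 TPM with K700E and 2179 ± 91.9 TPM with WT (SD, n = 3). DAD1 (500.2 ± 30.1 with K700E, 599.5 ± 55.1 TPM with WT), CALR (479.6 ± 48.5 and 505 ± 95 TPM) and SRP14 (396 ± 32.3 and 431 ± 28.6 TPM) followed, and DAD1 and CALR did not differ beyond their spread. At the low end of cytoplasmic levels stood SEC11C (37.9 ± 1.70 TPM with K700E, 43.4 ± 2.77 with WT), SRP19 (21.5 ± 3.59 and 24.6 ± 2.19 TPM) and CANX (11.1 ± 4.35 and 7.94 ± 0.591 TPM). The nuclear order was different, with HSP90B1 (974 ± 162 TPM with K700E, 830.3 ± 226 with WT) beside SRP9 (999 ± 276 and 770.0 ± 337 TPM), whose spreads overlapped. HSPA5 came next by mean (401 ± 117 and 288 ± 22.4 TPM). Its spread overlapped that of STT3B with K700E, and those of RPN2 (273 ± 22.5 TPM) and P4HB (271 ± 70.6 TPM) with WT. DAD1, at 132 ± 33.6 TPM in K700E nuclei and 129.7 ± 24.7 TPM in WT nuclei, fell well below STT3B there (313 ± 62.6 and 259 ± 32.0 TPM), although in the cytoplasm it stood above STT3B (141 ± 18.3 and 129.7 ± 19.5 TPM).

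Shorter mRNAs with fewer exons among the 38 tended to have larger cytoplasm-to-nucleus ratios. Across the 38 genes the log2 ratio had r = -0.55 with K700E and -0.51 with WT against log2 mRNA length, and r = -0.55 and -0.60 against log2 exon number, where 13892 protein-coding genes had -0.13 and -0.08 for length and -0.26 in both constructs for exons. These values describe genes measured in the same libraries and carry no p. Length and exon number are those of a single annotated transcript chosen per gene. The 19 genes with an mRNA below the list's median of 2678.5 bases had a median log2 ratio of 1.94 with K700E and 2.01 with WT, against 0.86 and 0.88 for the 19 longer ones. Of the shortest mRNAs, OST4, DAD1, SEC61G, SPCS1 and SRP14 (561 to 1077 bases) had ratios of at least 2.39 in both constructs, and SEC61B (545 bases) had 1.96 with K700E and 2.01 with WT. SSR2, the next in length at 1116 bases, had only 1.47 with K700E and 1.01 with WT. Exceptions stood on both sides. Among the longer mRNAs SSR3, with 3716 bases, had 2.69 (K700E) and 3.01 (WT). SSR1, the longest at 9669 bases, had 1.20 (K700E) and 1.45 (WT). Among the shorter ones RPN2, with 2515 bases, had only 0.63 (K700E) and 0.45 (WT). P4HB, with 2603 bases, had 0.50 (K700E) and 0.18 (WT). GC content of the mRNA showed little relation across the 38 genes (r = 0.13 with K700E and -0.03 with WT).

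**Figure D3:**
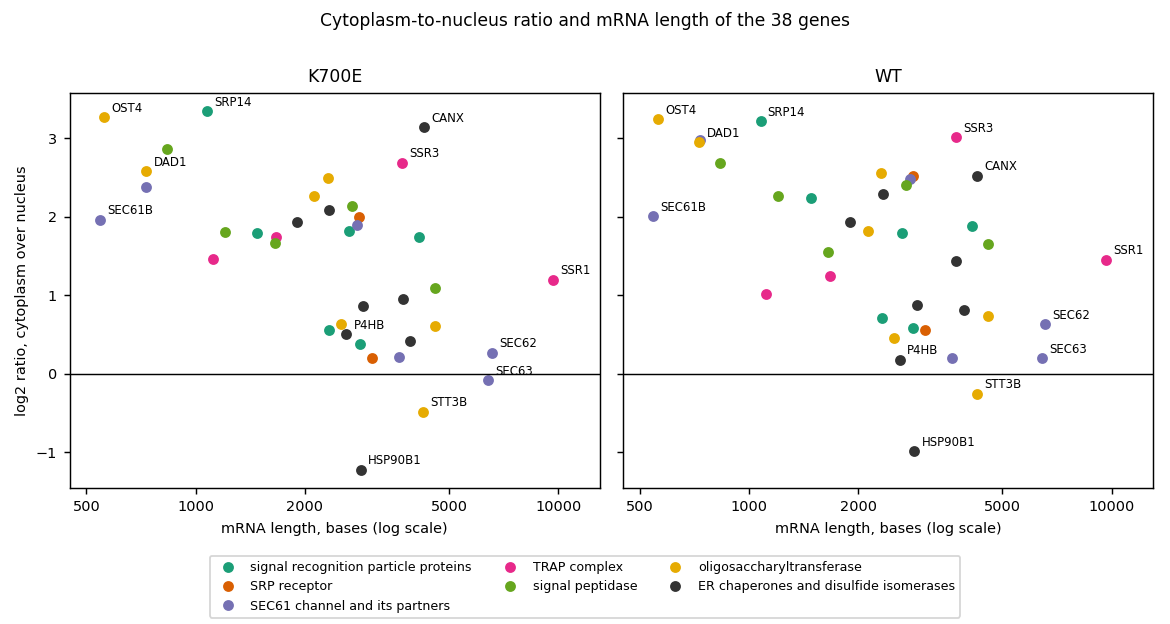
Log2 ratio of cytoplasm over nucleus (vertical axis) against mRNA length in bases (log scale) for the 38 genes, coloured by role, with K700E on the left and WT on the right. OST4, DAD1 and SRP14 lie at the upper left in both panels and SEC63 and STT3B at the lower right, while SSR3 and CANX are long and high.

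Replacing WT by K700E SF3B1 changed no member beyond the threshold in the cytoplasm: 0 of 38 were called, against 0.0049% of all genes, and 0 had an unadjusted p under 0.05, against 4.56% of all genes. DESeq2 and limma voom likewise called 0 members. The median log2 ratio of K700E over WT was -0.08 (0 over all genes), 28 members lay below 0, and the ratios of the 38 genes ran from -0.44 to 0.42. With 1 library left out, the median ran from -0.21 (without WT cytoplasm 3) to -0.027 (without WT cytoplasm 1). For 36 of 38 genes the 95% interval stayed within 1 log2 unit of 0 on both sides. The smallest p-values belonged to OST4, SRPRB, SRPRA and DAD1. OST4 had 39.8 to 47.1 CPM in K700E cytoplasm, all below the 54.6 to 60.3 CPM of WT cytoplasm (-0.44 ± 0.24, adjusted p = 1, edgeR). The receptor subunits SRPRB (-0.40 ± 0.23) and SRPRA (-0.35 ± 0.22) likewise had each K700E library below each WT library, on values given above. DAD1 had 119, 121 and 112 CPM in K700E cytoplasm, against 149, 163 and 130.4 CPM in WT cytoplasm (-0.33 ± 0.24).

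In 7 of 38 genes the cytoplasmic libraries did not overlap with K700E lower (OST4, SRPRB, SRPRA, DAD1, SRP68, SPCS2 and SEC11C), against 6.98% of all genes, and in 0 with K700E higher, against 6.6%. None of these differences passed the test. The same held outside the list, as 14 of 31 proteasome subunits and 3 of 8 TRiC subunits showed no overlap with K700E lower, and 31 of 31 proteasome subunits lay below 0 (median -0.30). Transcripts of the mitochondrial genome summed to 6108 to 7162 CPM in K700E cytoplasm and 4473 to 18783 CPM in WT cytoplasm, and their part in these differences was not tested. Without the GC-following libraries the median of the 38 genes was -0.20 and 0 were called.

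**Figure D4:**
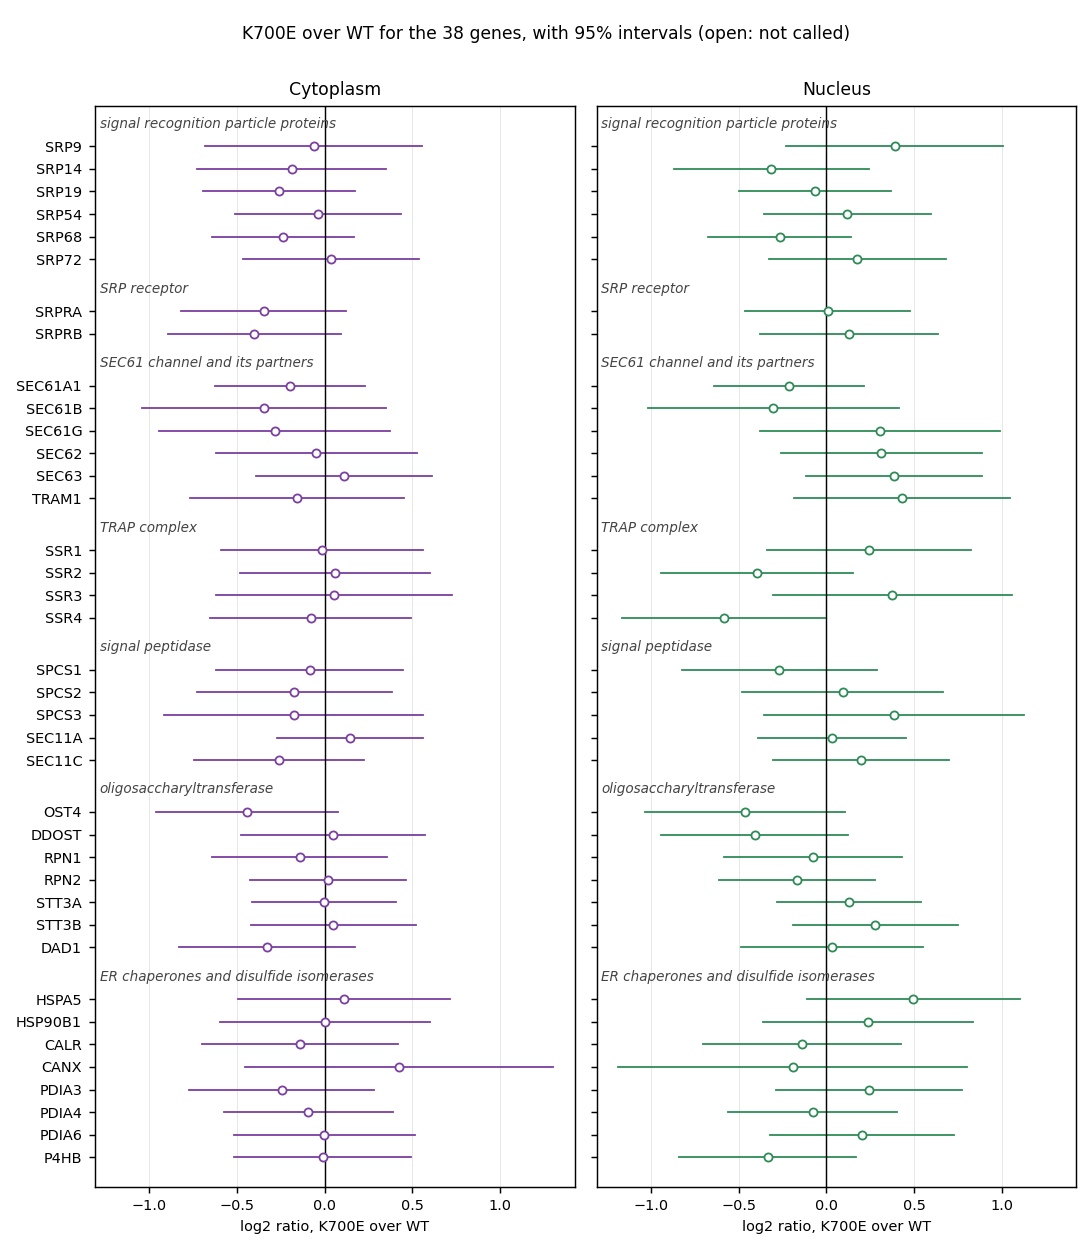
Log2 ratio of K700E over WT with 95% intervals for the 38 genes in the cytoplasm (left) and in the nucleus (right). Open symbols were not called, and all are open. In the cytoplasm each interval includes 0, and in the nucleus only that of SSR4 does not.

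In the nucleus 0 of 38 members were called, against 0% of all genes, and 1 had an unadjusted p under 0.05, against 6.81% of all genes. The constructs overlapped in the nucleus for every member, where 3.91% of all genes lay apart with K700E higher and 4.87% with K700E lower. DESeq2 and limma voom also called 0 members. The median log2 ratio of K700E over WT was 0.06 (-0.05 over all genes), 22 genes lay above 0 and 16 below, and intervals were wider, with 29 of 38 within 1 log2 unit of 0. SSR4 had 59.8, 44.4 and 37.8 CPM in K700E nuclei, against 64.4, 99.1 and 49.5 CPM in WT nuclei (-0.59 ± 0.27, adjusted p = 0.659, edgeR). The SSR4 groups overlapped, and the highest value was that of WT nucleus 2, which follows GC content. HSPA5 had the largest ratio above 0 (0.50 ± 0.29, adjusted p = 0.659), with K700E nucleus 2 at 411 CPM and the other K700E nuclei at 248 and 205 CPM, against 189.8 to 219 CPM in WT nuclei. OST4 (-0.46 ± 0.27) had 3.23 to 5.43 CPM in K700E nuclei, against 4.09 to 7.37 CPM in WT nuclei. DDOST had 53.5, 40.8 and 37.1 CPM in K700E nuclei, against 53.3, 80.2 and 41.1 CPM in WT nuclei (-0.41 ± 0.25). Over 22 alternatives these nuclear ratios ran from -0.78 to -0.20 (SSR4), 0.12 to 0.70 (HSPA5), -0.67 to -0.27 (OST4) and -0.60 to -0.038 (DDOST). The smallest size came without the GC-following libraries for SSR4, HSPA5 and DDOST and without K700E nucleus 3 for OST4, and the largest without K700E nucleus 1 for SSR4, without K700E nucleus 3 for HSPA5 and without WT nucleus 3 for OST4 and DDOST.

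Single libraries moved most of the 38 genes at once. K700E nucleus 3 was the lowest of its group for 34 of 38 genes and WT cytoplasm 3 of its own for 29, where these libraries were lowest for 32.28% and 35.59% of all genes. K700E nucleus 2 was the highest of its group for 23 genes, and WT nucleus 1 and WT cytoplasm 1 for 22 each. Leaving out 1 library at a time moved the nuclear median of K700E over WT between -0.073 (without K700E nucleus 2) and 0.27 (without K700E nucleus 3). It was also below 0 without the GC-following libraries (-0.11) and with library size alone (-0.021), so its sign is not settled.

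An altered ratio of cytoplasm to nucleus with K700E, the measure closest to the question of export, was called for 0 of 38 genes, against 0% of all genes, and 0 had an unadjusted p under 0.05, against 3.3% of all genes. DESeq2 and limma voom called 0 members here too. The ratio was lower with K700E for 26 genes and higher for 12, where 46.32% of all genes were lower, and the median change was -0.17 (0.05 over all genes), which ran from -0.32 (without K700E nucleus 3) to -0.015 (without K700E nucleus 2) with 1 library left out. For 17 of 38 genes the interval stayed within 1 log2 unit of 0, so changes of that size could not be set aside for the other 21. The smallest p-values were those of SRPRB (-0.53 ± 0.33), TRAM1 (-0.59 ± 0.41), SEC11C (-0.46 ± 0.33) and PDIA3 (-0.49 ± 0.35), each with an adjusted p of 0.98. Over 22 alternatives they ran from -0.78 to -0.29 (SRPRB), -0.93 to -0.12 (TRAM1), -0.66 to -0.31 (SEC11C) and -0.73 to -0.31 (PDIA3), with the smallest size without the GC-following libraries for SRPRB and TRAM1, without WT nucleus 3 for SEC11C and without WT cytoplasm 1 for PDIA3, and the largest without WT nucleus 1 for the first 3 and without WT cytoplasm 3 for PDIA3. TRAM1 had 289, 363 and 260.1 CPM in K700E cytoplasm, against 350.2, 381 and 286 CPM in WT cytoplasm, and 82.6, 112 and 50.1 CPM in K700E nuclei, against 85.6, 43 and 53.5 CPM in WT nuclei. SEC11C had 48.2, 47.7 and 53 CPM in K700E cytoplasm, against 59.9, 64.2 and 54.4 CPM in WT cytoplasm, and 16.5, 15.1 and 10.7 CPM in K700E nuclei, against 15.3, 12 and 9.55 CPM in WT nuclei. PDIA3 had 168, 176 and 152 CPM in K700E cytoplasm, against 241, 219.6 and 127 CPM in WT cytoplasm, and 99.9, 96.6 and 60 CPM in K700E nuclei, against 80, 68.1 and 68.9 CPM in WT nuclei. For TRAM1 and PDIA3 the constructs overlapped in each fraction. The interaction is set by the same libraries as the comparisons above and is no separate evidence.

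The wider ER pathway was read from 107 further genes, 103 of them tested. In K700E cells 50 were called higher in the cytoplasm and 23 lower (median 0.62), and in WT cells 51 higher and 20 lower (median 0.75). Over all genes tested, 28.1% were higher and 37.9% lower with K700E, and 27.1% and 40% with WT. Of the 13901 protein-coding genes, 5079 were higher and 3803 lower with K700E, and 4922 and 4101 with WT. Differences from these shares were not tested, here or for the lists below. Genes that act at the membrane beside the channel were more often higher than lower. Of 11 other subunits of the translocon and oligosaccharyltransferase, 6 were higher and 2 lower with K700E, and 7 higher and 2 lower with WT. Those with a mean of at least 5 CPM ranged from TMCO1, a membrane protein of the translocon (2.29 ± 0.30 with K700E, 2.60 ± 0.30 with WT), to KRTCAP2, a subunit of oligosaccharyltransferase (-2.98 ± 0.37 and -2.80 ± 0.37). In the ER membrane complex (EMC), which inserts membrane segments, 7 of 10 were higher and 1 lower in each construct. MMGT1 had 3.36 ± 0.38 with K700E and 3.75 ± 0.38 with WT, and EMC1, its largest subunit, had -0.74 ± 0.21 and -0.64 ± 0.21. The EMC1 call with WT was lost without WT cytoplasm 3 (-0.47) or WT nucleus 1 (-0.46), and without a filter on low counts (-0.52). For insertion of tail-anchored proteins, 5 of 7 genes were higher and 1 lower with K700E, and 5 higher and 0 lower with WT, with UBL4A at 2.46 ± 0.31 and 2.28 ± 0.31 and SGTA at 1.33 ± 0.30 and 1.06 ± 0.30 (the WT call of SGTA was lost with library size alone, 0.53).

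Folding factors outside the 38 genes were divided nearly evenly. Among 22 other folding factors 8 were higher and 8 lower with K700E, and 8 higher and 7 lower with WT. Calls in both directions were also common over all genes (28.1% higher and 37.9% lower with K700E, 27.1% and 40% with WT). The split is thus not particular to these factors. SDF2L1, a partner of BiP, had 2.92 ± 0.44 (K700E) and 2.82 ± 0.44 (WT), and UGGT2, which tags misfolded glycoproteins, had -1.77 ± 0.23 (K700E) and -1.83 ± 0.24 (WT). Of 22 genes that build the lipid-linked sugar tree, 9 were higher and 4 lower with K700E, and 10 higher and 5 lower with WT. DOLK, the dolichol kinase, had 1.25 ± 0.37 (K700E, not called with library size alone, 0.81) and 2.24 ± 0.38 (WT), and ALG6, a glucosyltransferase of the pathway, had -1.32 ± 0.23 (K700E) and -1.28 ± 0.23 (WT). For ER-associated degradation the counts were 9 higher and 5 lower of 20 with K700E, and 9 higher and 2 lower with WT. UBE2J1, a ubiquitin-conjugating enzyme, had 2.06 ± 0.25 (K700E) and 2.69 ± 0.25 (WT), and AUP1, which recruits such enzymes, had -1.22 ± 0.25 (K700E) and -1.55 ± 0.25 (WT).

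Sensors and regulators of the unfolded protein response had 6 higher and 2 lower of 11 with K700E, and 5 higher and 3 lower with WT. PPP1R15A, which restores translation after stress, had 2.22 ± 0.28 (K700E) and 2.21 ± 0.28 (WT), and the sensor kinase EIF2AK3 had -1.84 ± 0.25 (K700E) and -1.37 ± 0.25 (WT). None of the 103 genes was called between constructs in either fraction. RN7SL1, a gene for 7SL, the RNA of the signal recognition particle, had 59.5, 31.7 and 10.2 CPM in K700E cytoplasm, against 41.2, 52 and 37.9 CPM in K700E nuclei, and 11.8, 47.2 and 12.6 CPM in WT cytoplasm, against 35.2, 25.4 and 44.8 CPM in WT nuclei. The RN7SL1 fractions overlapped in both constructs (-0.37 ± 0.52 with K700E, which was 0.10 without K700E cytoplasm 3, and -0.56 ± 0.53 with WT, which was -1.51 and called lower without WT cytoplasm 2). Of 3 genes for 7SL, 2 were tested. The other tested gene had a mean below 5 CPM and a ratio of the opposite sign, 1.17 in both constructs, not called. The direction of 7SL is thus not settled.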

How the data were processed

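Gene counts, as deposited by the authors, were the starting point: whole numbers for 67049 gene IDs in each of 12 libraries. HISAT2 and DESeq are named in the submitters' processing notes. Not given in the sources used here: the counting program, use of strand, genome build and annotation. Of the IDs, 60507 had a symbol and 58440 were in GENCODE 29 (99.7% of counts), whose features gave lengths, exons and overlaps on GRCh38. The members and gene lists were chosen with earlier results of these data known.

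Genes were filtered with edgeR's filterByExpr (minimum count 10, minimum total 15) and scaled with TMM factors, and 4 groups of 3 libraries entered one quasi-likelihood fit (R 4.3.3, edgeR 4.0.16, limma 3.58.1, DESeq2 1.42.0). Contrasts compared cytoplasm with nucleus within a construct, K700E with WT within a fraction, and the ratios between constructs, with Benjamini-Hochberg adjustment over 20394 genes (threshold 0.05, two-sided), standard errors in log2 and 95% intervals. The fit was tested on simulated data with changes set in K700E cytoplasm alone. Those data held no GC-following library and no shared replicate effect, so the test cannot speak to either. Values in every library are given for the member with the largest and the one with the smallest WT ratio of each role group and the 4 members with the smallest p in each comparison of constructs; from each further list, the genes with the largest and smallest WT ratio at a mean of at least 5 CPM are named. Alternatives were other scalings, filters, DESeq2, limma voom, a replicate block, fewer libraries, and each library left out. Columns of other samples used: 0. One cell type marker is not reported here.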

Additional observations from a re-analysis of the deposited data

How the results depend on the processing

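Of 2700 single-gene values under alternative settings, 2582 kept direction and call, 58 lost and 35 gained a call, and 25 changed sign. Scaling mattered most. Library size alone shifted the median of all genes by -0.41 (K700E) and -0.52 (WT), and upper quartile factors by -0.37 (K700E) and -0.38 (WT). In the order library size alone, upper quartile factors and a minimum of 1 CPM in every library, the members' median ratio was 1.33, 1.38 and 1.42 with K700E and 1.22, 1.36 and 1.36 with WT, and 2 members were lower. In that order SRPRA (-0.22, -0.16, -0.12), SEC61A1 (-0.20, -0.16, -0.11) and SEC62 (-0.12, -0.090, -0.044) fell below 0 with K700E, as did SEC61A1 (-0.32, -0.17, -0.12), SEC63 (-0.33, -0.18, -0.13) and P4HB (-0.35, -0.20, -0.15) with WT. Library size alone also turned SRP19 (-0.031, K700E) and RPN2 (-0.072, WT). The 1 CPM minimum, which CANX did not pass, left 3938 genes lower with K700E and 4074 with WT, of fewer genes tested. With K700E, 2 members were lower also with DESeq2 size factors, the DESeq2 Wald test and a fit of only the libraries compared. With K700E, SEC63 was 0.21 without K700E nucleus 2, 0.10 without K700E cytoplasm 3 and 0.42 without the GC-following libraries, a setting chosen after seeing the data, and RN7SL1 was 0.30 without the GC-following libraries and ran from -1.05 to 0.10 with 1 library left out. With 1 library left out at a time, 26 to 31 (K700E) and 28 to 33 (WT) members were higher, 1 was lower, and their medians were 1.62 to 1.84 (K700E) and 1.66 to 1.87 (WT).

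Between constructs 0 members were called under any setting tried. Over all genes, in the cytoplasm 11 were higher and 2 lower with the DESeq2 Wald test, 50 higher and 35 lower without a filter, and 0 higher with limma voom, with only the libraries compared, without the GC-following libraries and with the replicate block. In the nucleus 1 was lower with the Wald test, and 10 were higher and 26 lower without a filter. For the change in ratio 2 were higher and 1 lower with the Wald test, and 24 higher and 7 lower without a filter. The cause of these differences was not tested. Leaving out 1 library gave 0 to 2 genes higher in the cytoplasm, 0 to 1 lower in the nucleus and 0 to 1 higher in the change of ratio. The number of members with an unadjusted p under 0.05 also moved. In the cytoplasm it was 0 in the main fit, 4 with only the libraries compared, 2 without the GC-following libraries and 1 with limma voom. Without WT nucleus 1 it was 5 in the nucleus (1 in the main fit) and 6 for the change in ratio (0 in the main fit). The shares of all genes under these settings were not drawn up. Over all pairs of groups, correlations of same-numbered libraries (deviations from group means) ran from -0.25 to 0.43. Between K700E and WT libraries of the same fraction they were all above 0, at 0.063 to 0.43 in nuclei and 0.027 to 0.34 in cytoplasm. Differently numbered libraries there had -0.33 to 0.13 in nuclei and -0.28 to 0.17 in cytoplasm. Whether same-numbered libraries shared a batch was not tested, and the main fit has no block. Under the replicate block 29 (K700E) and 31 (WT) members were higher and 1 lower. A block of construct and number together gave 29 (K700E) and 32 (WT), the added WT call being SEC62.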
